A study of Homo sapiens with 9 samples.

Results

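The genes described here are those whose RNA was mostly gone in both NF-YA-overexpressing lines of PC-3 multicellular tumor spheroids (MTSs). A gene was taken when each of the 3 Empty libraries held at least 40 expected counts and when its mean TPM (a length-corrected share of all transcripts) in each of the NF-YAl and NF-YAs lines was at most 0.25 of the Empty mean. Of 27111 genes, 13697 passed the count limit, 60 of these were at or under the ratio limit in NF-YAl, 82 in NF-YAs and 25 in both. A further 6 of the 25, among them GABRA3, LINC00520, LINC01133, LINC01444 and TIMP3, were left out because collagens, channels, intergenic RNAs, TIMPs and other named families were not considered, which left 19 genes, or 0.139% of those over the count limit. The genes were chosen by their TPM in both lines against Empty, so the levels against Empty below are a description, and no test is given for them.

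PC-3 is an established human prostate cancer line derived from a bone metastasis. Cells were transduced with lentiviral particles carrying an empty vector (Empty) or the murine long (NF-YAl) or short (NF-YAs) isoform of NF-YA and selected with puromycin, so that each line is 1 stable transduced population and all 3 share vector and selection. Total RNA was sequenced from 3 independent experiments per line, whose libraries carry the letters A to C except that NF-YAl has D in place of C. A library held 18076979 to 27163976 expected counts in total, and since each condition is 1 transduced line, line and transgene cannot be told apart. NFYA stood at 15.0 to 19.9 TPM in Empty MTSs, whereas NF-YAl libraries held 59.3 to 116 TPM and NF-YAs libraries 49.3 to 60.8 TPM, with no overlap between Empty and either line. The highest value, 116 TPM, was that of NF-YAl replicate D. Reads were aligned to human transcripts and the transgenes are murine, so these values do not measure the level of the transgenes. The share of transgene reads assigned to human NFYA was not tested. The epithelial keratins KRT8 and KRT18 were at 70.4 to 423 TPM in all libraries, the prostate marker KLK3 was listed at 0 in all, and EPCAM was under 1 TPM in Empty. CTNNA1, which PC-3 cells lack, was under 1 TPM throughout. The 4 fibroblast markers examined summed to at most 0.49 TPM, and of the leukocyte markers PTPRC and CD3E were under 1 TPM in every library and LYZ was at 14.0 to 35.2 TPM in all groups. The summed TPM of 4 endothelial markers was 7.81 to 9.24 in Empty but 81.2 to 151 in NF-YAl and 39.5 to 58.1 in NF-YAs, nearly all of it KDR, with CDH5 at no more than 0.12 TPM, and their part in the levels below was not tested.

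NF-Y is a heterotrimer that binds the CCAAT box of promoters, and NF-YA is the subunit that makes the sequence-specific contact. Its long and short isoforms differ by an alternatively spliced exon in the transactivation domain. The genes below are of mixed function. They include the gel-forming mucins MUC5AC and MUC5B, the secreted protease KLK8, the protease inhibitor SPINK1, detoxifying enzymes and the cornified envelope protein RPTN. Alongside these are the sarcomere protein TTN, the synaptic vesicle protein SYN3 and the atypical synaptotagmin SYT13.

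All 19 genes passed edgeR's filter on low counts, and in all 19 every NF-YAl and NF-YAs library was below every Empty library, an arrangement found for 13.8% of the 17108 tested genes. All 19 were also called lower in both lines (adjusted p under 0.01 and |log2FC| above 1 by edgeR's quasi-likelihood test), against 1.57% of all tested genes (5.83% were called lower in at least one line), but the same contrasts chose them and nothing is read from these counts. The median log2 fold change (log2FC) of the 19 was -3.05 in NF-YAl and -3.47 in NF-YAs against Empty, beside 0.01 and -0.0026 for all tested genes. In mean TPM, 7 of the 19 were at or below 10% of Empty in NF-YAl, 9 in NF-YAs and 5 in both. These 5 were SYN3, SLC38A11, MAOB, ZBTB7C and MUC5AC. For 15 of the 19, the Empty mean was below 10.2 TPM, the lowest median of an Empty library over genes past the count limit, so most of the set was already at a modest level in control MTSs. In bulk RNA, a smaller share of cells expressing a gene and less of its RNA per cell cannot be told apart.

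**Figure D1:**
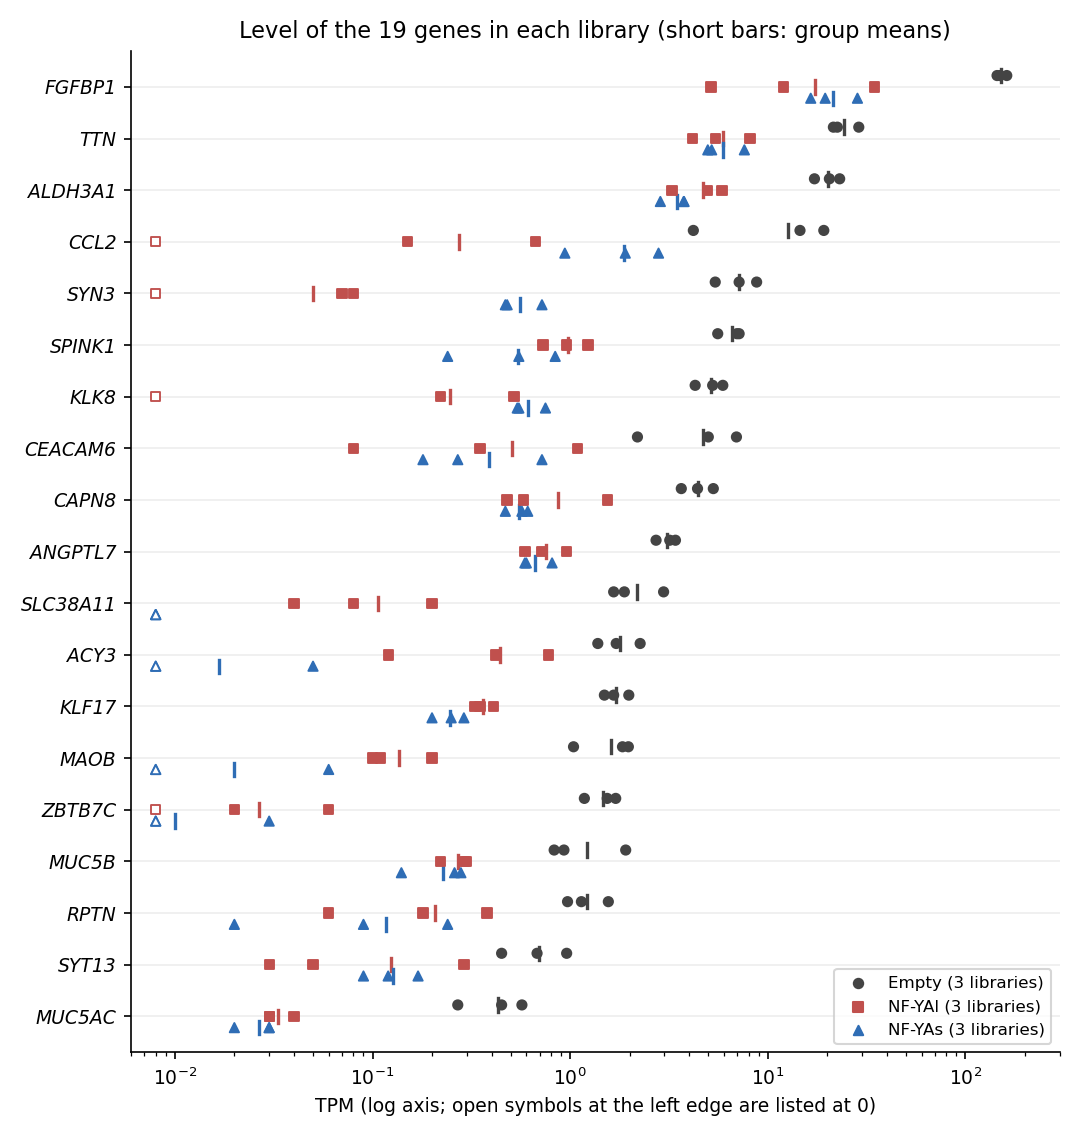
TPM of the 19 genes (rows, ordered by the Empty mean) in each of the 9 libraries, on a log axis, with group means as short bars and values listed at 0 as open symbols at the left edge. The Empty libraries lie to the right of all NF-YAl and NF-YAs libraries in every row, and FGFBP1 stands above all other genes at 145 to 162 TPM in Empty.

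Promoter sequences are shown because NF-Y recognizes CCAAT, and NF-YA is what both lines overexpress. Of the 19 genes, 11 had an entry among RefSeq promoters (GRCh38.p14, 250 bases before to 50 after the start), and each window matched GRCh37, the build of the reads, exactly once. ALDH3A1, CCL2, SYN3, KLK8, ACY3, MUC5B, SYT13 and MUC5AC had none. The 250 bases before the start are given 5′ to 3′ on the gene's strand for the 4 genes with CCAAT on either strand, for RPTN with a TATA box at a usual distance from its start, and for MAOB, which had the most CpG. Capitals mark CCAAT, its reverse complement ATTGG, or TATAAA. The GRCh37 positions are chr4:15940364-15940613 for FGFBP1, chr2:179672151-179672400 for TTN, chr18:45901999-45902248 for ZBTB7C, chr1:223853404-223853653 for CAPN8, chr1:152131705-152131954 for RPTN and chrX:43741697-43741946 for MAOB, all on the minus strand. The RefSeq starts of TTN and ZBTB7C lie inside their GENCODE gene spans, so these windows are not at the outermost start.
FGFBP1: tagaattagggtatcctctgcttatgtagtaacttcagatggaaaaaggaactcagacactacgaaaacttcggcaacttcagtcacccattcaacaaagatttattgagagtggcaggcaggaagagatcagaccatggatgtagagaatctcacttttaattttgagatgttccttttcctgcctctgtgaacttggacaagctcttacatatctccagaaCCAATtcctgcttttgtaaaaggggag
TTN: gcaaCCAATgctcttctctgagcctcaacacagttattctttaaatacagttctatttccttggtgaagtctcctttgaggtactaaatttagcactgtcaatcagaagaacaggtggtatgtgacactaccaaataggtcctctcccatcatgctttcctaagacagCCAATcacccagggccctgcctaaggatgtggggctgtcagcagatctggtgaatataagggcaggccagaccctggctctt
ZBTB7C: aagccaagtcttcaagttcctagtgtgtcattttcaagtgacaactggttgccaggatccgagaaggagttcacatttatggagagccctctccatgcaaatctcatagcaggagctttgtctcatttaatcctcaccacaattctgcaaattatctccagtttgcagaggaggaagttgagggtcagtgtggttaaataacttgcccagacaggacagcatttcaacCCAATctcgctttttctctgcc
CAPN8: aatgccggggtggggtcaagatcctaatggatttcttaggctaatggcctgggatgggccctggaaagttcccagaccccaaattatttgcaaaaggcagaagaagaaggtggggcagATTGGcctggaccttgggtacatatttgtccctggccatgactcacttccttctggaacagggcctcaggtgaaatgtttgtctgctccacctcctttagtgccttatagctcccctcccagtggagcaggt
RPTN: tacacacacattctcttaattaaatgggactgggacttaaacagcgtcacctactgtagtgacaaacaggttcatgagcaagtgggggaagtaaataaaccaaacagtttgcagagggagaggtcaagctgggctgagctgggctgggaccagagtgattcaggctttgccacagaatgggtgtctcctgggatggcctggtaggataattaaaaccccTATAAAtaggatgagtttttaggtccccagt
MAOB: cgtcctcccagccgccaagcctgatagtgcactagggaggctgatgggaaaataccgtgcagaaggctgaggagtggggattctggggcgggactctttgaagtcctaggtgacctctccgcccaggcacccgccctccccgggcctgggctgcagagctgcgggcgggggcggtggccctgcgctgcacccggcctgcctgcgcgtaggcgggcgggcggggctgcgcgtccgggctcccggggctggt

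CCAAT began 27 bases before the start in FGFBP1, 246 and 82 bases before it in TTN and 22 bases before it in ZBTB7C, and its reverse complement began 132 bases before the start in CAPN8. CCAAT on either strand was present in 4 of the 11 windows (36.4%), beside 36.2% of the windows of 12173 tested genes, so its share was close to that of all genes. On the gene's strand alone it was present in 3 windows (27.3%), beside 21.1%. TATAAA on the gene's strand was present in 2 (18.2%), RPTN and CEACAM6, beside 4.49%. A match is a description of letters and not a measured binding site.

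The 11 windows were poor in CpG. They held 1 to 28 CpG with a median of 3, beside a median of 25 in all tested genes, and the median GC content was 53.3%, beside 64.3%. In 8 of the 11 windows there were at most 5 CpG, beside 11.8% of tested genes, with this limit chosen after the values were seen. KLF17 with 18 CpG and MAOB with 28 CpG were the most CpG-rich, while SPINK1, CAPN8 and RPTN held 1 each. The median was 7.5 for 22 genes at or under the ratio limit in NF-YAl only and 8 for 38 genes in NF-YAs only, and the difference of these sets from the 11 was not tested.

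FGFBP1, on chr4:15937200-15940363, encodes a secreted carrier that releases fibroblast growth factors from the matrix. It was by far the most abundant of the 19, with 162, 145 and 149 TPM in Empty, 5.15, 11.99 and 34.6 TPM in NF-YAl and 28.4, 16.5 and 19.51 TPM in NF-YAs. The 3 Empty libraries were close together, whereas the NF-YAl libraries spread widely, with replicate D the highest. The NF-YAl mean was 11.4% and the NF-YAs mean 14.1% of Empty.

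CCL2 (chr17:32582293-32584227) is the chemokine that attracts monocytes. Its level was 19.2, 4.2 and 14.6 TPM in Empty, 0, 0.15 and 0.67 TPM in NF-YAl and 2.80, 0.94 and 1.90 TPM in NF-YAs. It was the most variable gene within Empty, where replicate B was far below the others, and 2.16% of the mean remained in NF-YAl against 14.9% in NF-YAs. The NF-YAl libraries together held 7 counts of this gene, compared with 484 in Empty.

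ANGPTL7 (chr1:11249412-11256038), a secreted angiopoietin-like protein, was at 3.19, 2.72 and 3.41 TPM in Empty, 0.96, 0.59 and 0.72 TPM in NF-YAl and 0.59, 0.81 and 0.60 TPM in NF-YAs. It was among the least reduced of the set, with 24.4% and 21.5% of Empty left. The gene lies within MTOR on the opposite strand, and MTOR, the growth-regulating kinase, was called in neither line, with a log2FC of -0.43 in NF-YAl and 0.06 in NF-YAs.

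SPINK1 and KLK8 stand on both sides of extracellular serine proteolysis. SPINK1 (chr5:147204135-147211234), the secreted pancreatic trypsin inhibitor that also marks a subset of prostate cancers, was at 7.16, 5.58 and 6.97 TPM in Empty, 0.73, 0.96 and 1.23 TPM in NF-YAl and 0.84, 0.55 and 0.24 TPM in NF-YAs. KLK8 (chr19:51499263-51505967), a kallikrein protease of skin and brain also called neuropsin, was at 5.26, 5.92 and 4.29 TPM in Empty, 0.22, 0 and 0.52 TPM in NF-YAl and 0.75, 0.54 and 0.55 TPM in NF-YAs. SPINK1 kept a larger part of its Empty level in NF-YAl (14.8%) than in NF-YAs (8.27%), and KLK8 a smaller part (4.78% and 11.9%). Neither gene was called between the lines, and SPINK1 rested on 22 counts in NF-YAl and 11 in NF-YAs over all libraries. KLK8 rested on 3 counts in NF-YAl and 13 in NF-YAs over all libraries, and its close kallikrein paralogs make the assignment of single reads uncertain.

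MUC5AC and MUC5B, the gel-forming mucins of gastric and airway mucus, were the only neighbouring pair among the 19, with no tested gene and 21931 bases between them on chromosome 11 (chr11:1151580-1222364 and chr11:1244296-1283402). MUC5B was at 1.91, 0.83 and 0.93 TPM in Empty, 0.30, 0.22 and 0.29 TPM in NF-YAl and 0.14, 0.28 and 0.26 TPM in NF-YAs. MUC5AC, the least abundant of the set, was at 0.57, 0.45 and 0.27 TPM in Empty, 0.03, 0.03 and 0.04 TPM in NF-YAl and 0.03, 0.02 and 0.03 TPM in NF-YAs. MUC5AC was left at 7.75% and 6.20% of Empty, compared with 22.1% and 18.5% for MUC5B. On the other side of MUC5AC, the mucins MUC2 and MUC6 of the same cluster were not called in either line, with a log2FC of -1.45 (adjusted p = 0.0135 by edgeR) and -0.33 for MUC2 and -0.39 and 0.07 for MUC6.

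CEACAM6, SLC38A11 and SYT13 are membrane proteins. CEACAM6 (chr19:42254885-42276116), a lipid-anchored adhesion molecule of epithelial tumors, was at 6.94, 2.19 and 5.0 TPM in Empty, 0.08, 0.35 and 1.09 TPM in NF-YAl and 0.27, 0.18 and 0.72 TPM in NF-YAs. Its libraries differed several-fold within each group, and its close paralogs leave read assignment uncertain. SLC38A11 (chr2:165750864-165812035), a member of the family of sodium-coupled amino acid transporters, was at 2.97, 1.66 and 1.88 TPM in Empty, 0.04, 0.08 and 0.20 TPM in NF-YAl and 0 in all 3 NF-YAs libraries. No count was assigned to it in NF-YAs, beside 228 in Empty. Against a floor of 3 counts in each NF-YAs library, it was at least 19.1-fold lower there, a bound that covers counting error only. SYT13 (chr11:45261853-45307892), an atypical synaptotagmin, was at 0.96, 0.45 and 0.68 TPM in Empty, 0.05, 0.03 and 0.29 TPM in NF-YAl and 0.12, 0.17 and 0.09 TPM in NF-YAs.

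Enzymes formed a further group of 4. ALDH3A1 (chr17:19641297-19652256), a detoxifying aldehyde dehydrogenase of cornea and stomach, was at 23.1, 20.49 and 17.2 TPM in Empty, 5.87, 3.28 and 4.96 TPM in NF-YAl and 3.77, 3.75 and 2.86 TPM in NF-YAs. MAOB (chrX:43625857-43741696), the mitochondrial amine oxidase that degrades dopamine and phenylethylamine, was at 1.84, 1.97 and 1.04 TPM in Empty, 0.11, 0.20 and 0.10 TPM in NF-YAl and 0.06, 0 and 0 TPM in NF-YAs. MAOB thus kept 8.45% of its Empty mean in NF-YAl but 1.24% in NF-YAs, where 2 counts were left in all. MAOA, its paralog next to it on the X chromosome, was higher than Empty in both lines without passing the fold limit, by 0.73 (log2FC, SE 0.139, adjusted p = 0.0018 by edgeR) in NF-YAl and by 0.65 (SE 0.140, adjusted p = 0.00327) in NF-YAs.

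ACY3 (chr11:67410026-67418201), an aminoacylase that removes acetyl groups from mercapturic acids and N-acetylated amino acids, was at 2.26, 1.71 and 1.38 TPM in Empty, 0.12, 0.42 and 0.78 TPM in NF-YAl and 0, 0.05 and 0 TPM in NF-YAs. It lay just inside the ratio limit in NF-YAl, at 24.7% of Empty, and retained 1 count in NF-YAs. CAPN8 (chr1:223711349-223853425), a calpain protease known from gastric mucous cells, was at 5.30, 4.41 and 3.65 TPM in Empty, 1.54, 0.48 and 0.58 TPM in NF-YAl and 0.61, 0.47 and 0.57 TPM in NF-YAs. Here NF-YAl replicate A was the high library, in contrast to FGFBP1 and CCL2, for which it was replicate D.

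Among structural and vesicle proteins, TTN (chr2:179390716-179695529) encodes titin, the giant elastic protein of the sarcomere. It had by far the most reads of the set, with 46182 to 50283 counts in Empty libraries, 5573 to 10719 in NF-YAl and 7484 to 9105 in NF-YAs. Its level was 28.9, 21.5 and 22.5 TPM in Empty, 4.15, 5.44 and 8.14 TPM in NF-YAl and 7.61, 5.20 and 4.97 TPM in NF-YAs, so that both lines kept 24.4% of Empty. Its transcripts kept their order. A transcript of 101520 nt took 62.9% ± 2.11, 56.3% ± 2.40 and 61.3% ± 1.61 of titin TPM in Empty, NF-YAl and NF-YAs MTSs (SD, n = 3), and a short one of 18220 nt took 10.3% ± 0.603, 13.9% ± 2.63 and 10.6% ± 0.397. TTN-AS1, which lies opposite to TTN, was not called, with a log2FC of -0.05 in NF-YAl and 0.48 in NF-YAs.

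RPTN (chr1:152126071-152131704), repetin, belongs to the epidermal differentiation complex and to the cornified cell envelope. Its level was 1.56, 0.97 and 1.14 TPM in Empty, 0.06, 0.18 and 0.38 TPM in NF-YAl and 0.09, 0.02 and 0.24 TPM in NF-YAs. SYN3 (chr22:32903807-33454367), a synapsin that coats synaptic vesicles, was at 8.78, 7.16 and 5.42 TPM in Empty, 0.08, 0.07 and 0 TPM in NF-YAl and 0.72, 0.47 and 0.48 TPM in NF-YAs. SYN3 had the lowest share of Empty of all 19 in NF-YAl, 0.702%, with 8 counts left of 1285, whereas 75 counts were left in NF-YAs.

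KLF17 and ZBTB7C are zinc finger transcription factors. KLF17 (chr1:44584493-44600812), known from the early embryo and as a repressor of epithelial-mesenchymal transition in breast cancer, was at 1.49, 1.98 and 1.66 TPM in Empty, 0.35, 0.33 and 0.41 TPM in NF-YAl and 0.20, 0.29 and 0.25 TPM in NF-YAs. In TPM its libraries were close together within each group, from counts of 79, 144 and 125 in Empty, 15 to 23 in NF-YAl and 8 to 14 in NF-YAs. ZBTB7C (chr18:45553043-45937123) was at 1.54, 1.70 and 1.18 TPM in Empty, 0.02, 0 and 0.06 TPM in NF-YAl and 0, 0.03 and 0 TPM in NF-YAs. Of 397 counts over the Empty libraries, NF-YAl had 4 and NF-YAs 2, so that little of it was left in either line.

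**Figure D2:**
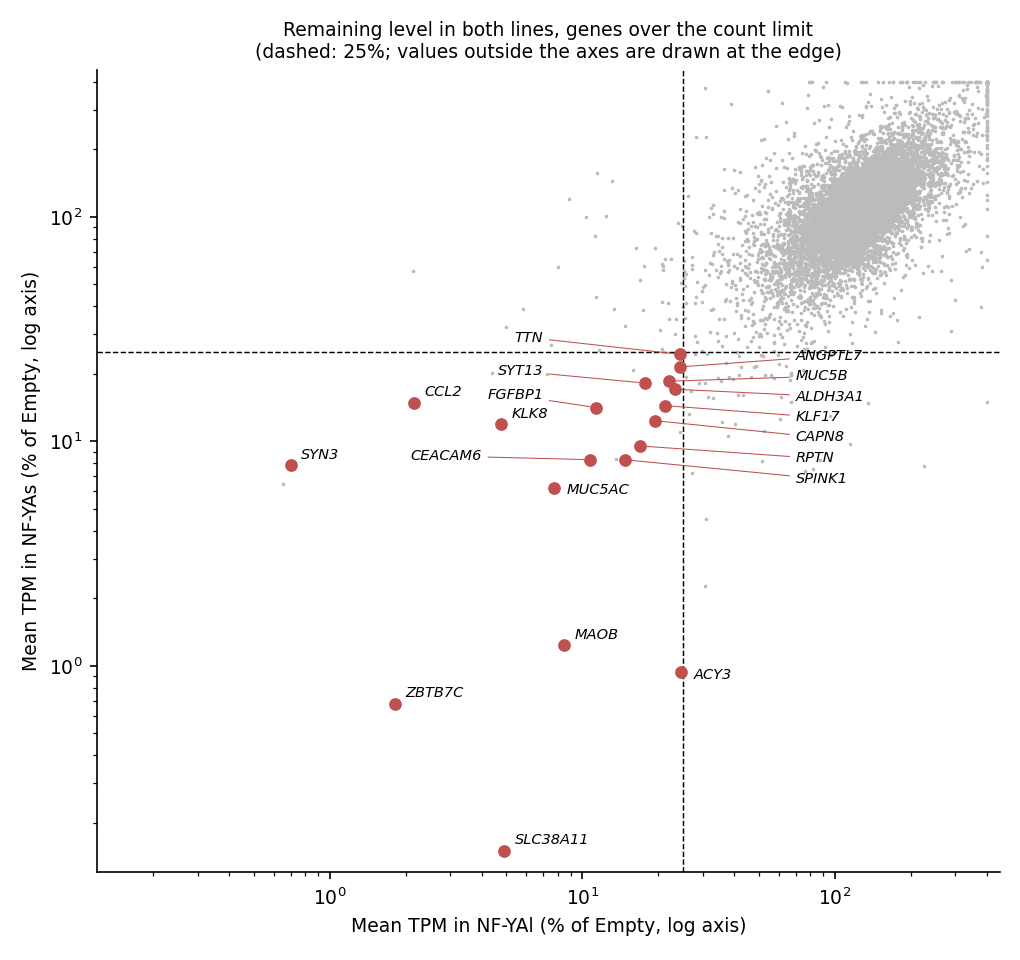
Mean TPM as a percentage of Empty in NF-YAl (horizontal) and in NF-YAs (vertical), both on log axes, for the genes over the count limit (grey) and the 19 genes (red, named), with the 25% limits dashed. ACY3, TTN and ANGPTL7 lie just inside the limit, SYN3 lies far to the left at 0.702% in NF-YAl, and SLC38A11, with no count in NF-YAs, is drawn at the lower edge.

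The 25% limit cut through a continuous range. Just inside it were ANGPTL7, TTN and ACY3, and just outside were DHRS9, SDCBP2 and GPD1. DHRS9, a retinol dehydrogenase, was at 8.85, 11.3 and 9.78 TPM in Empty, 1.02, 0.73 and 1.75 TPM in NF-YAl and 3.06, 1.87 and 2.74 TPM in NF-YAs. SDCBP2, a syntenin, was at 3.08, 2.56 and 3.21 TPM in Empty, 0.37, 0.84 and 0.62 TPM in NF-YAl and 0.85, 0.77 and 0.65 TPM in NF-YAs. GPD1, the cytosolic glycerol phosphate dehydrogenase, was at 3.61, 6.34 and 2.31 TPM in Empty, 0.81, 0.95 and 1.41 TPM in NF-YAl and 0.86, 0.67 and 0.85 TPM in NF-YAs. A limit of 0.2 kept 13 of the 19 genes, and a limit of 0.3 gave 30.

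The scale of TPM moved with the library. Of all TPM, 5 short noncoding RNAs (RN7SL1, RN7SL2, RN7SK, SNORD3A and RMRP) took 33.8 to 45.2% in 8 libraries but 14.3% in NF-YAl replicate D, and this library was the highest of its group for 91.3% of genes over the count limit and for 13 of the 19. Empty replicate A was likewise the highest of its group for 93.8% of genes and 14 of the 19, and NF-YAs replicate A for 77.7% and 11 of the 19. On another scale, counts divided by library sizes with TMM factors (CPM), all 19 genes met the limit, together with 12 more (CCDC141, DHRS9, ELF3, GPD1, MAGEA1, OSTN, S100A4, SDCBP2, SLAMF9, SLPI, STX11 and TFF2), and without NF-YAl replicate D the TPM rule gave 32 genes that included all 19. The summed TPM of the 19 genes was 230 to 285 in Empty but 19.9 to 55.1 in NF-YAl and 30.3 to 47.0 in NF-YAs, and the highest NF-YAl value was that of replicate D.

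Whether the lines differed from each other was a contrast that the rule did not use to choose genes, although it limited both to low levels. When edgeR compared the lines directly, 2 of the 19 genes were called, beside 4.61% of the 17108 tested genes. One was lower in NF-YAl (background 2.86%) and one higher (background 1.74%). Only 10 of the 19 passed the filter on low counts when it was applied to the NF-YAl and NF-YAs libraries alone. The other 9 (CCL2, SPINK1, KLK8, SLC38A11, ACY3, MAOB, ZBTB7C, SYT13 and MUC5AC) were in this comparison because their Empty libraries carried them through the filter. SYN3 was lower in NF-YAl than in NF-YAs, with a log2FC of -3.34 (SE 0.485, adjusted p = 0.000614) and all 3 NF-YAl libraries (0, 0.159 and 0.204 CPM) below the 3 NF-YAs libraries (1.09, 1.11 and 1.56 CPM). ACY3 was higher in NF-YAl, with a log2FC of 4.0 (SE 0.905, adjusted p = 0.00816) and 0.106, 0.450 and 0.452 CPM against 0, 0.0498 and 0 CPM. The call of SYN3 was made in all 11 alternative settings in which it could be tested, with an adjusted p of 8.39e-08 to 0.00661. ACY3 was among the 9 that could not be tested on the libraries of both lines alone. Its call, which rests on 24 counts against 1, was lost when any of NF-YAl replicates B and D or NF-YAs replicates A, B and C was left out, with an adjusted p of 0.0154 to 0.0417 by edgeR.

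CCL2 (log2FC -3.0, SE 0.843, adjusted p = 0.0235) and SLC38A11 (log2FC 4.47, SE 1.20, adjusted p = 0.0235) had adjusted p values by edgeR that pass 0.05 but not the threshold of 0.01. For SLC38A11, with no count in NF-YAs, the fitted log2FC and the SE derived from it depend on the prior count. DESeq2 called CCL2 lower in NF-YAl, with a log2FC of -3.09 and an adjusted p of 0.000382. KLK8 (log2FC -2.15, SE 0.724, adjusted p = 0.0501) and MAOB (log2FC 2.80, SE 0.971, adjusted p = 0.0557) followed them. All 4 were kept by the filter through Empty only, and their differences rest on few counts. Those 4 genes, SYN3 and ACY3 were the 6 without overlap in CPM between the lines, as was so for 39.5% of tested genes. Of the 19, 6 had a lower and 13 a higher fitted level in NF-YAl, with a median log2FC of 0.28 beside 0.02 for all tested genes. The SEs of the 17 genes not called ran from 0.149 (TTN) to 1.21 (ZBTB7C). For CEACAM6, the fitted difference was 0.01 with an SE of 0.668, so that this value does not show that the lines were alike.

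**Figure D3:**
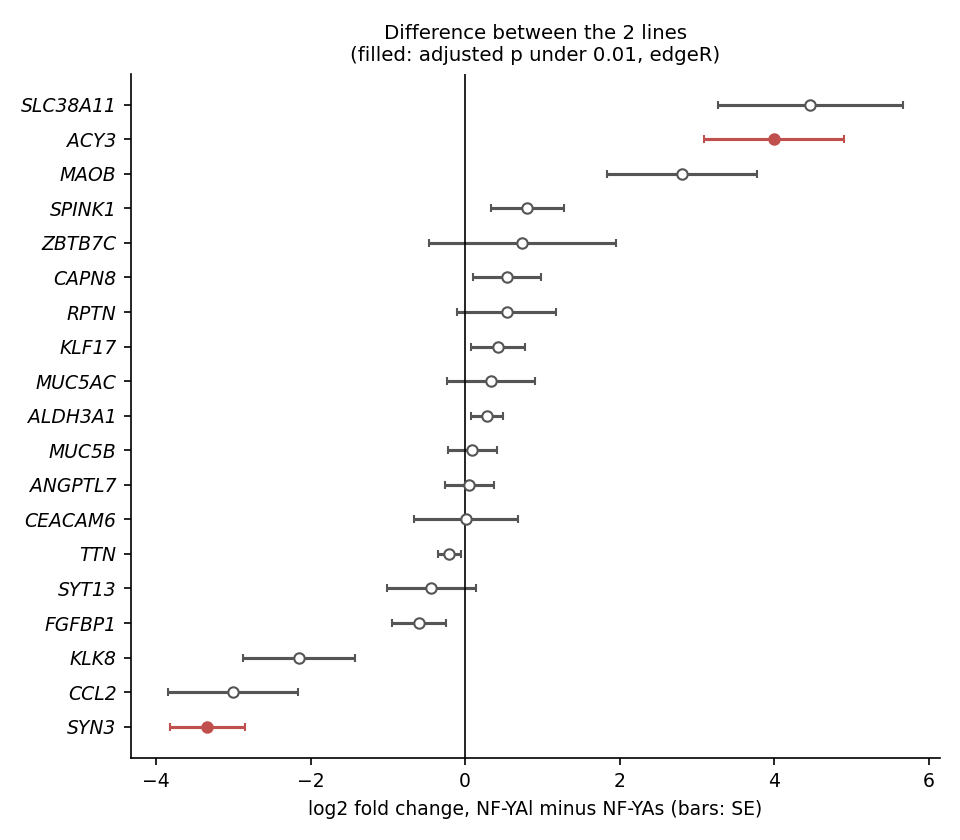
Fitted log2 fold change of NF-YAl minus NF-YAs (horizontal axis) for each of the 19 genes (rows), with bars of 1 SE (derived from the F test) and filled red points for the called genes SYN3 and ACY3. A group of 3 genes on each side stands apart, SYN3, CCL2 and KLK8 at -3.34 to -2.15 and SLC38A11, ACY3 and MAOB at 2.80 to 4.47, while the others lie between -0.59 and 0.80.

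The 19 genes lay on 10 chromosomes in the GENCODE annotation of GRCh37, and the rule used neither position nor neighbours. The nearest 5 placed and tested genes on each side gave 180 neighbours that are not among the 19. Of these, 17 were called lower in NF-YAl (9.44%, beside 3.5% of all tested genes), 22 in NF-YAs (12.2%, beside 3.9%) and 11 in both (6.11%, beside 1.57%), and 8 and 4 were called higher (beside 4.76% and 5.44%). The median log2FC of the neighbours was -0.16 in NF-YAl and -0.15 in NF-YAs. Around KLK8 and SLC38A11 lay 9 of the 17 and 7 of the 22. Without the neighbours of these 2 genes, an alternative chosen after seeing the data, 8 of 160 remained in NF-YAl, 15 in NF-YAs and 6 in both.

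SYN3 shared its locus with TIMP3, an inhibitor of matrix metalloproteinases that lies inside SYN3 on the opposite strand and met the same limits, but whose family was left out. TIMP3 was at 6.38, 4.28 and 3.16 TPM in Empty, 0.04, 0.02 and 0.03 TPM in NF-YAl and 0.36, 0.15 and 0.38 TPM in NF-YAs. Both genes were thus lowest in NF-YAl, and TIMP3 differed between the lines by a log2FC of -3.55 (SE 0.512, adjusted p = 0.000595 by edgeR). Whether the counting used strand is not given in the sources used here, and reads of overlapping genes on opposite strands may be shared. On the other side of SYN3, the nearest genes were not called lower. FBXO7 had a log2FC of -0.33 in NF-YAl and -0.27 in NF-YAs and RTCB of -0.39 and -0.15.

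KLK8 belongs to the kallikrein cluster, and 6 of its relatives were tested, all among its nearest 5 genes on either side. KLK4, KLK5, KLK7 and KLK10 were called lower in NF-YAl, and KLK5 and KLK7 in NF-YAs, whereas KLK11 and KLK14 were called in neither. KLK5, an epidermal protease that activates others of the family, was at 1.58, 2.16 and 1.13 TPM in Empty, 0.05, 0 and 0 TPM in NF-YAl and 0, 0.10 and 0.18 TPM in NF-YAs. KLK4, a prostate and enamel protease, was at 3.01, 1.67 and 1.88 TPM in Empty, 0, 0.07 and 0.07 TPM in NF-YAl and 1.63, 1.04 and 1.08 TPM in NF-YAs. Its log2FC of NF-YAl minus NF-YAs was -4.56 (SE 0.519, adjusted p = 0.000121 by edgeR), and KLK10 differed in the same direction (log2FC -1.41, SE 0.25, adjusted p = 0.0021). SHANK1, a synaptic scaffold gene at the same end of the cluster, was called lower in NF-YAl (log2FC -1.74, SE 0.217, adjusted p = 9.34e-05 by edgeR) and not in NF-YAs (log2FC 0.58, SE 0.203, adjusted p = 0.0412).

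Around SLC38A11, DPP4, SCN3A and GALNT3 were called lower in both lines, IFIH1 in NF-YAl only and COBLL1 in NF-YAs only. GALNT3, a glycosyltransferase that starts mucin-type O-glycans, was at 13.2, 13.7 and 12.04 TPM in Empty, 4.55, 2.68 and 6.89 TPM in NF-YAl and 4.97, 4.70 and 3.96 TPM in NF-YAs. DPP4, a surface peptidase that trims chemokines and incretins, was at 47.4, 33.9 and 36.3 TPM in Empty and 21.5, 14.6 and 13.8 TPM in NF-YAs. In NF-YAl it was at 16.1 and 16.4 TPM in replicates A and B and at 46.5 TPM in replicate D. The scale of TPM was higher in replicate D, with a median of 20.08 TPM over genes past the count limit. In Empty libraries this median was 10.22 to 13.57 TPM. The value of DPP4 in replicate D therefore does not show that this library kept the Empty level. Next to SPINK1, SCGB3A2, an airway secretoglobin, was called lower in both lines, with a log2FC of -2.06 (SE 0.436, adjusted p = 0.00352 by edgeR) in NF-YAl and -2.99 (SE 0.507, adjusted p = 0.000708) in NF-YAs. CCDC141, which overlaps the start of TTN on the same strand, was at 15.6 ± 1.90, 4.22 ± 3.02 and 2.62 ± 0.487 TPM in Empty, NF-YAl and NF-YAs MTSs (SD, n = 3), with a log2FC of -2.33 and -2.76 (SE 0.256 and 0.263, adjusted p = 3.98e-05 and 1.19e-05 by edgeR).

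**Figure D4:**
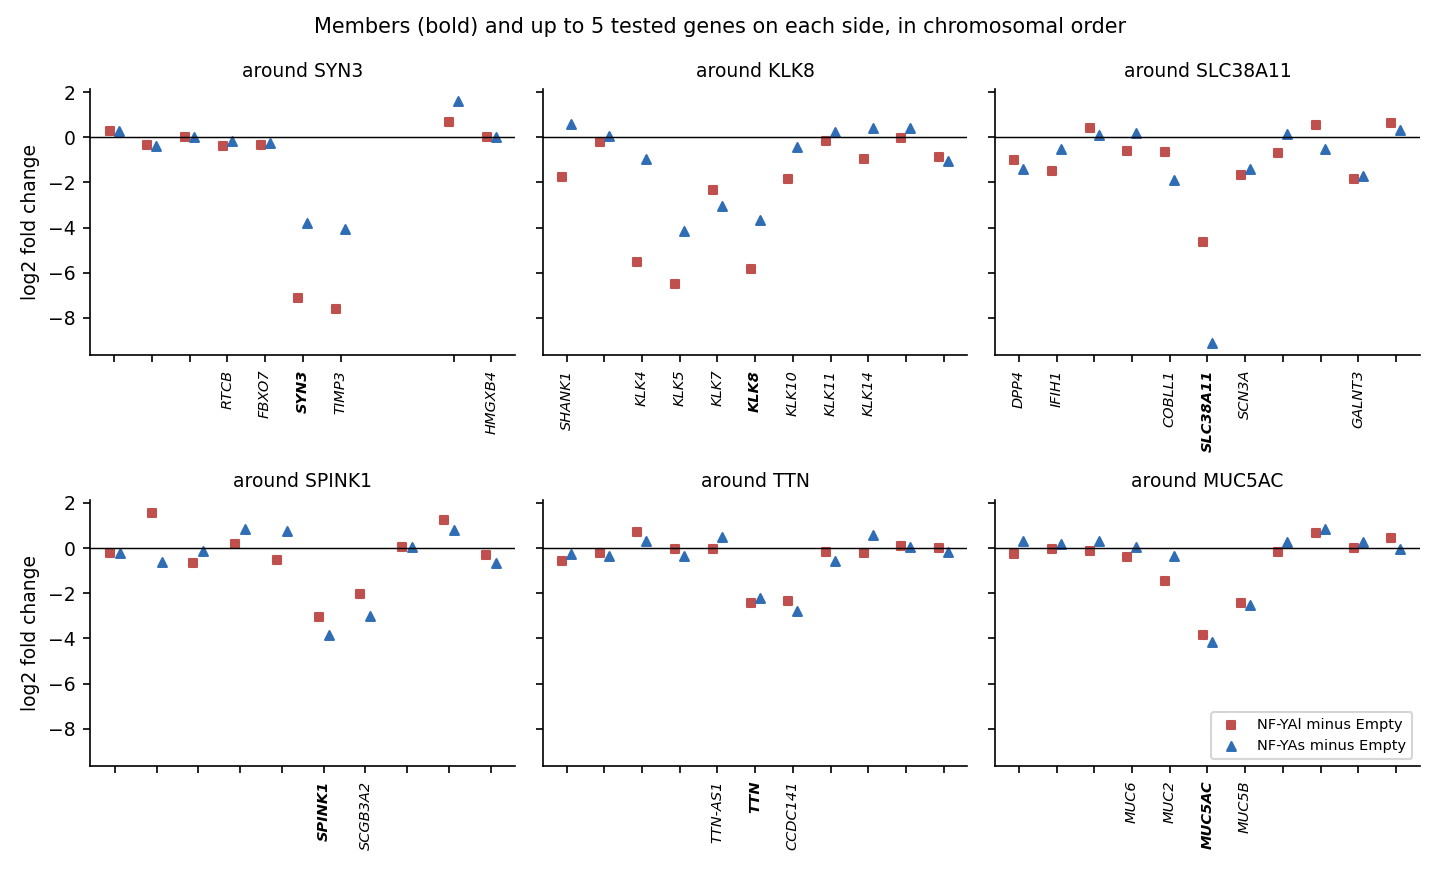
Fitted log2 fold change against Empty (vertical axis) in NF-YAl (red squares) and NF-YAs (blue triangles) for 6 of the 19 genes (bold) and up to 5 tested genes on each side, in chromosomal order, with names given for the genes of the text and a few points not shown. TIMP3 beside SYN3, KLK5 and KLK7 beside KLK8, SCGB3A2 beside SPINK1, CCDC141 beside TTN and MUC5B beside MUC5AC are also low in both lines, while FBXO7 and HMGXB4 are among the neighbours close to 0.

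Family relatives, that is other tested genes with the same symbol root, numbered 119. Of these, 12 were called lower and 4 higher in NF-YAl, 14 lower and 8 higher in NF-YAs, beside 3.5%, 4.76%, 3.9% and 5.44% of all tested genes, and 7 were called lower in both, beside 1.57% (KLK5, KLK7, MUC12, MUC3A, CCL26, ANGPTL4 and SYT7). CCL26, an eosinophil chemokine, was more abundant than CCL2, at 48.3 ± 7.01 TPM in Empty against 11.2 ± 7.03 TPM in NF-YAl and 14.5 ± 5.12 TPM in NF-YAs (SD, n = 3). ANGPTL4, an inhibitor of lipoprotein lipase, was at 103 ± 18.8, 43.5 ± 20.8 and 22.0 ± 6.01 TPM. Relatives also went the other way. The membrane mucin MUC13 was called higher in both lines, with a log2FC of 4.05 (SE 0.381, adjusted p = 1.35e-05 by edgeR) and 4.16 (SE 0.381, adjusted p = 9.21e-06) from 0.06 TPM in Empty, and SYN2 was called higher in NF-YAs, with a log2FC of 1.75 (SE 0.292, adjusted p = 0.000628). ALDH3A2, a fatty aldehyde dehydrogenase next to ALDH3A1, was called lower in NF-YAs only, with a log2FC of -1.25 (SE 0.113, adjusted p = 8.74e-06) beside -0.52 (SE 0.111, adjusted p = 0.0038) in NF-YAl.

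Lists of genes of related function, of which 3 hold a gene of the set, are given beside the shares of all tested genes called lower (3.5% and 3.9%) and higher (4.76% and 5.44%). The counts include CCL2, ALDH3A1 and TTN, which were chosen for low levels in both lines, so their calls add nothing. Among 29 tested chemokines and cytokines, 4 were called lower and 6 higher in NF-YAl and 2 lower and 9 higher in NF-YAs, with CCL2 and CCL26 the pair lower in both. Of 38 genes of retinoid and steroid metabolism, 5 were lower and 4 higher in NF-YAl and 4 lower and 6 higher in NF-YAs, ALDH3A1, DHRS9 and RBP4 being lower in both. Of 26 actin and muscle contractile genes, 1 was lower and 2 higher in NF-YAl and 4 lower and 2 higher in NF-YAs. The only gene of this list lower in both was TTN, which the rule had chosen for that. Of 40 genes of epithelial identity, 6 were lower and 5 higher in NF-YAl and 12 lower and 2 higher in NF-YAs, with ELF3, ELF5, CLDN4, PPL and CDH3 lower in both and a median log2FC of 0.08 and -0.53.

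Of 39 interleukin and TNF family receptors, 2 were called lower and 1 higher in NF-YAl and 1 lower and 3 higher in NF-YAs. Of 40 ligands and antagonists of TGF-beta, BMP and activin, 4 were lower and 7 higher in NF-YAl and 3 lower and 9 higher in NF-YAs. Among 39 solute carriers of amino acids and sugars the counts were 2 lower and 4 higher in NF-YAl and 3 lower and 1 higher in NF-YAs. Among 62 homeobox and developmental transcription factors they were 3 lower and 10 higher in NF-YAl and 3 lower and 12 higher in NF-YAs. Lower in both lines were IL6R among the receptors, FST and NOG among the ligands and antagonists, SLC5A3 among the carriers and DLX3 among the transcription factors, beside 1.57% of all tested genes. Of 28 complement and coagulation genes, 2 were lower and 2 higher in NF-YAl and 4 lower and 1 higher in NF-YAs. Of 9 cancer-testis antigens, 2 were lower and 1 higher in NF-YAl, and the 2 called in NF-YAs were both higher. Of 9 genes of MHC class II and antigen processing, the 1 called in NF-YAl and the 2 called in NF-YAs were higher.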

How the data were processed

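Gene and transcript expression was measured by RNA-seq in 9 libraries (PC-3 MTSs, 3 per line). Per the labels, stranded total RNA libraries were made, and the submitters' processing notes name Bowtie2, RSEM and hg19. The authors deposited expected counts and TPM per gene and per transcript, as RSEM gives them, and the deposited transcript tables also hold each transcript's share of its gene in percent. Whether counting used strand is not given in the sources used here. Expected counts were rounded and fitted in R 4.3.3 with edgeR 4.0.16 (filterByExpr, TMM, quasi-likelihood F test, all 9 libraries, group as the term, Benjamini-Hochberg adjustment over 17108 genes), and a gene was called at an adjusted p under 0.01 with |log2FC| above 1. The SE beside an edgeR log2FC is |log2FC| divided by the square root of the F statistic, as this test gives no SE itself. The step was tested on simulated data first. Intervals and bounds cover counting error only.

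The genes, the lists of related function and the comparisons were chosen with earlier results of these data known. All 19 genes may be named, with every library given for the most abundant, the most reduced, those called between the lines, adjacent ones and those at the limit, and the others were added in the same form. Other genes are named as neighbours, relatives, overlapping genes or list members. Alternatives were DESeq2 1.42.0, other filters, thresholds and limits, a replicate block, only the groups compared, CPM in place of TPM, other neighbour windows and leaving out each library. The letters A and B recur in all 3 groups and C in Empty and NF-YAs. Promoter windows of 300 bases and GENCODE positions on GRCh37 were read with Python 3.11.15 and pandas 2.3.3. Some genes among the neighbours and markers are not reported here.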

Additional observations from a re-analysis of the deposited data

Results flagged for a closer look

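SYN3 and ACY3 were called between the lines, with a log2FC of NF-YAl minus NF-YAs of -3.34 and 4.0 by edgeR's test of the difference itself. ACY3 was in this comparison only because its Empty libraries carried it through the filter, and its call rests on 24 counts against 1. That call was lost when NF-YAl replicate B or D, or any NF-YAs library, was left out. Among neighbours and relatives, 8 genes that were called against Empty in at least one line also differed between the lines. TIMP3 (-3.55), KLK4 (-4.56), KLK10 (-1.41) and SHANK1 (-2.33) were lower in NF-YAl than in NF-YAs. COBLL1 (1.23), SLC47A1 (1.95), MUC1 (1.07) and MUC15 (1.88) were higher in NF-YAl. Groups of 3 libraries are too small for a test of outlying libraries in single genes. Over genes past the count limit, NF-YAl replicate D had the lowest correlations of all replicate pairs. They were 0.963 with replicate A and 0.977 with replicate B (Pearson, log2 of TPM plus 1). No cause was tested for any of these differences.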

How the results depend on the processing

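Of 108 alternative values of the main counts, 83 stayed within 1.5 times and 25 moved, and none of the single-gene differences that was called changed sign. These labels compare counts, also where the number of genes tested or of neighbours differed. Between the lines, 1 gene was called lower in NF-YAl, and 2 were with DESeq2 or at an adjusted p under 0.05. With at least 10 counts in every library 0 was called, with 6 of the 19 tested. One was called higher, against 2 at an adjusted p under 0.05, 0 with at least 10 counts in every library and 0 when only the 2 groups compared were fitted, with 10 of the 19 tested. Leaving out 1 library gave 1 to 1 lower and 0 to 1 higher. The number of genes meeting the rule was 30 at a ratio limit of 0.3, 10 at a count limit of 80, 31 on CPM and 15 (without NF-YAl replicate B) to 32 (without NF-YAl replicate D) with 1 library left out. With 1 library left out, 13 to 16 of 180 neighbours were lower in NF-YAl, 19 to 21 in NF-YAs and 8 to 11 in both. With at least 10 counts in every library, 10 of 159 were lower in NF-YAl, 16 in NF-YAs and 6 in both. With 3 genes on each side, 11 of 108 (10.2%) were lower in NF-YAl, 15 (13.9%) in NF-YAs and 7 (6.48%) in both. With 10 genes on each side, 30 of 360 (8.33%) were lower in NF-YAl, 37 (10.3%) in NF-YAs and 16 (4.44%) in both. Without those of KLK8 and SLC38A11, 8 of 160 were lower in NF-YAl, 15 in NF-YAs and 6 in both. Over all tested genes the shares were 3.5%, 3.9% and 1.57%. Relatives lower in both numbered 5 to 8 of 119 with 1 library left out. The causes were not tested. Low counts limit ACY3, KLK8, MAOB, SLC38A11 and ZBTB7C most.

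Libraries with the same letter had residual correlations of -0.0652 to 0.253. Most of these were positive, and the highest of all pairs across groups was that of Empty B and NF-YAl B, but the range overlapped that of libraries with different letters. These values do not decide whether the letters mark pairs. The main fit did not take them as pairs, and the edgeR calls of CCL2 and ACY3 between the lines depended on this choice. Both genes were in this comparison only through their Empty libraries. They rest on few counts in NF-YAl and NF-YAs, 7 against 52 for CCL2 and 24 against 1 for ACY3. With the replicate block, 2 genes were called lower in NF-YAl (CCL2 at -3.75, adjusted p = 0.00453 by edgeR, and SYN3) and 0 higher (ACY3 at 3.62, adjusted p = 0.0250). Of 180 neighbours, 15 were then lower in NF-YAl, 23 in NF-YAs and 10 in both, and of 119 relatives 6 were lower in both.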
